A study of Mus musculus with 15 samples.

Results

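This comparison asks which genes differed between mouse lung tumours that lacked p130 in addition to Rb and p53 and tumours that lacked Rb and p53 alone. It used 13 of the 15 arrays of a study of how closely mouse tumours resemble human small cell lung cancer, an aggressive neuroendocrine lung cancer. The members were chosen by genotype label. The Rb/p53/p130 group (RbΔ/Δ, p53Δ/Δ and p130Δ/Δ) held 3 tumours, numbers 11 to 13, taken 6 months after infection. The Rb/p53 group (RbΔ/Δ and p53Δ/Δ) held 10 tumours, numbers 1 to 10, taken after 8 to 12 months. Both groups share the loss of Rb and p53 and the way tumours were started, with an adenovirus that carried Cre recombinase into the airways through the nose. The remaining arrays were 2 wild-type, tumour-free adult lungs, which are given for level and also entered the estimate of spread. Genotype goes with time after infection, so p130 loss and tumour age cannot be told apart. The promoter that drove Cre is not stated in the labels. Whether each tumour of a group came from its own mouse is not stated, and p-values therefore speak for these samples alone. The spread behind the limma p-values came from all 15 arrays, the 2 lungs included.

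Rb, p107 and p130 are the pocket proteins, encoded by Rb1, Rbl1 and Rbl2. They bind E2F transcription factors and hold genes of the cell cycle in check. In resting cells p130 sits with E2F4, a DP partner and the MuvB proteins in the DREAM complex, which represses genes needed for DNA replication and mitosis. When the cell enters the cycle, cyclin-dependent kinases release it.

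Expression was read as log2 levels on Affymetrix arrays, on which a gene is probed by 1 or more probe sets of short DNA probes. Of 45037 probe sets tested, those with a single gene symbol belonged to 18193 genes, and a gene was read from its brightest probe set, the one with the highest mean over all arrays. Levels of different genes are not compared. The samples are dissected pieces of tissue, so fewer cells of a type and less RNA per cell cannot be told apart. The markers Insm1, Chga, Syp, Snap25, Uchl1 and Ncam1 of neuroendocrine cells and Mki67, Top2a and Cdk1 of dividing cells stood above both normal lungs in 13 of 13 tumours. Across probe sets the Rb/p53/p130 tumours correlated with each other at r = 0.986 to 0.991, and the Rb/p53 tumours with each other at r = 0.948 to 0.989. Pairs across the genotypes correlated at r = 0.95 to 0.982, within the range of pairs of Rb/p53 tumours. The difference between 3' and 5' actin controls, a sign of RNA integrity, was 0.81 to 1.01 in Rb/p53/p130 tumours (median 0.95) and 0.5 to 1.35 in Rb/p53 tumours (median 0.65). All 3 Rb/p53/p130 tumours lay above 7 of the 10 Rb/p53 tumours, and tumours 1, 2 and 3 were higher. With this difference as a covariate, an alternative chosen after seeing the data, limma called 18 genes and 111 probe sets, against 13 and 95 without it. The female-specific RNA Xist stood at 13.6 to 13.69 in all 3 Rb/p53/p130 tumours and at 7.08 to 14.02 in Rb/p53 tumours. Of these, tumours 1, 3, 4, 6 and 8 were high and the other 5 low, so Xist was high in 3 of 3 Rb/p53/p130 tumours and 5 of 10 Rb/p53 tumours.

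The targeted genes read here did not separate the genotypes. Of them, Rb1 is deleted in both groups and could not do so. Rbl2, which encodes p130, had log2 levels of 8.39, 8.61 and 8.82 in the Rb/p53/p130 tumours. In the Rb/p53 tumours its lowest, median and highest levels were 7.68, 8.74 and 9.09. The groups overlapped, and the log2 difference was -0.05 ± 0.23 (SE, 95% interval -0.54 to 0.44, limma adjusted p = 0.972, exact rank-sum p = 0.573, two-sided). Its other probe set differed by 0.21 ± 0.31 (limma adjusted p = 0.887). Rb1 stood at 11.71, 11.89 and 11.67 in Rb/p53/p130 tumours, against a lowest, median and highest level of 10.98, 11.58 and 12.19 in Rb/p53 tumours (log2 difference 0.25 ± 0.23, limma adjusted p = 0.783). The labels do not place these probe sets against the deleted exons, and neither gene can serve as a check of genotype. Trp53 was not analysed here. Among the 40 measured genes next to Rbl2 on chromosome 8, 20 on either side, limma called 0, with a median log2 difference of 0.0. Of the 40, 2 had an unadjusted limma p under 0.05 (7.26% over all genes). By the exact rank-sum test 3 had an unadjusted p under 0.05 (8.63% over all genes). After adjustment that test could call none, since its smallest adjusted p was 0.223.

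Few genes differed. At a limma adjusted p under 0.05, 13 of 18193 genes passed, which is 0.0715%. Of these, 4 were higher (0.022% of genes) and 9 lower (0.0495%) in Rb/p53/p130 tumours, and in all 13 the groups did not overlap, as in 1.97% of all genes (1.1% higher, 0.868% lower). The median log2 difference over all genes was 0.01, and 7.26% of genes had an unadjusted limma p under 0.05. An exact rank-sum test over the 286 splits of the tumours called 0 genes (1570 at an unadjusted p under 0.05, or 8.63%), since its smallest p of 0.00699 becomes 0.223 after adjustment.

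Malat1, a long noncoding RNA of the nucleus that gathers at splicing speckles, had the deepest fall of the 13. Its levels were 10.77, 11.41 and 11.24 in Rb/p53/p130 tumours, against a lowest, median and highest level of 11.92, 12.83 and 13.35 in Rb/p53 tumours. All 3 tumours without p130 lay below every Rb/p53 tumour and below the normal lungs (12.87 and 13.07). The fall was 2.95-fold (log2 difference -1.56 ± 0.25, SE, limma adjusted p = 0.0168). Malat1 has 7 probe sets on the array, and 7 of 7 gave a negative difference, from -1.96 to -0.39, with 3 called. Of 10 nuclear long noncoding RNAs measured, Malat1 was the 1 called, and the list's median log2 difference was -0.31.

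Mau2, which helps load cohesin onto chromosomes, stood at 8.48, 8.37 and 8.41 in Rb/p53/p130 tumours, against 9.34, 9.82 and 10.13 as the lowest, median and highest level in Rb/p53 tumours. A gap separated the groups, and normal lung (8.49 and 8.27) lay with the tumours lacking p130. Mau2 was 2.55-fold lower (log2 difference -1.35 ± 0.14, limma adjusted p = 0.000674), the smallest adjusted p among the 13. Its 3 other probe sets differed by -0.53 to 0.09 and were not called. Xrn2, a nuclear exonuclease that degrades RNA 5' to 3' and acts in ending transcription, stood at 8.95, 8.89 and 8.7 in Rb/p53/p130 tumours, against 9.55, 9.98 and 10.24 as the lowest, median and highest level in Rb/p53 tumours. It was 2.18-fold lower (log2 difference -1.12 ± 0.13, limma adjusted p = 0.00155), while its other 2 probe sets differed by -0.14 and -0.1. Mau2 and Xrn2 were the 2 genes whose calls held when each of the 13 tumours was left out in turn.

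The other falls covered several kinds of gene. Csnk2a1, a catalytic subunit of casein kinase 2, had levels of 9.81, 9.73 and 9.56 in Rb/p53/p130 tumours, against a lowest, median and highest level of 10.33, 10.77 and 11.04 in Rb/p53 tumours (2.03-fold lower, limma adjusted p = 0.00598). Its other 5 probe sets differed by -0.76 to 0.1 and were not called. Zbtb7a, a zinc finger repressor of transcription, stood at 6.93, 7.29 and 7.33, against 7.98, 8.36 and 8.81 in Rb/p53 tumours (2.21-fold lower, limma adjusted p = 0.0119), while its other 2 probe sets differed by -0.22 and -0.1 and were not called. In the brightest probe set both genes left a clear gap between the genotypes. Prrc2c, a proline-rich protein, was at 10.16, 10.21 and 10.34 in Rb/p53/p130 tumours, against 10.86, 11.44 and 11.67 in Rb/p53 tumours (2.15-fold lower, limma adjusted p = 0.0192). Of its 6 probe sets 2 were called lower, and the other 4 differed by -0.65 to 0.27. Zer1, a substrate receptor of a cullin ubiquitin ligase, was at 5.95, 5.95 and 6.09, against 6.55, 7.11 and 7.31 in Rb/p53 tumours (2.03-fold lower, limma adjusted p = 0.0104). Normal lung lay near the tumours without p130 for Zer1 (6.1 and 6.21), Csnk2a1 (9.39 and 9.2) and Prrc2c (9.87 and 10.24).

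Vldlr, a receptor for lipoproteins, differed from these in its level in normal lung. It stood at 6.38, 5.99 and 5.97 in Rb/p53/p130 tumours, at 6.73, 7.38 and 7.88 (lowest, median and highest) in Rb/p53 tumours, and at 11.08 and 10.71 in normal lung. It was thus lower in tumours without p130 by 2.39-fold (limma adjusted p = 0.0151), and all 6 of its probe sets gave a negative difference. Jund, a subunit of the AP-1 transcription factor, was at 11.44, 11.48 and 11.5 in Rb/p53/p130 tumours, against 12.03, 12.28 and 12.56 in Rb/p53 tumours (1.75-fold lower, limma adjusted p = 0.0461). Its other probe set differed by -0.12. Jund was the 1 called of 18 immediate early genes, genes that respond fast to stimuli, and its call held in 3 of 13 fits that left out a tumour.

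The 4 rises were led by Gm10033 and BC023105, which have 1 probe set each. Gm10033 was at 5.72, 6.15 and 5.58 in Rb/p53/p130 tumours, against 3.5, 4.15 and 4.98 in Rb/p53 tumours, at least 3.01-fold higher (limma adjusted p = 0.0164). A fold is a lower bound where the lower group's mean does not exceed 5.05, the highest of the arrays' lower quartiles. BC023105 was at 7.19, 6.94 and 7.9, against 5.22, 5.92 and 6.59 in Rb/p53 tumours (2.71-fold higher, limma adjusted p = 0.033). Its call held in 6 of 13 fits that left out a tumour. Socs6, a member of the suppressors of cytokine signalling, had the smallest SE of the 13. It was at 8.78, 8.65 and 8.83 in Rb/p53/p130 tumours, against 7.93, 8.11 and 8.22 in Rb/p53 tumours (1.56-fold higher, log2 difference 0.64 ± 0.08, limma adjusted p = 0.00432), and its other 2 probe sets differed by 0.54 and 0.63. Hltf, a DNA translocase that remodels stalled replication forks, was at 10.01, 10.15 and 10.19, against 9.3, 9.56 and 9.74 in Rb/p53 tumours (1.47-fold higher, limma adjusted p = 0.0266). Its other 2 probe sets differed by 0.24 and 0.66. In normal lung Gm10033 (6.09 and 5.65) and Hltf (10.34 and 10.18) lay near the tumours without p130. BC023105 (6.18 and 6.03) lay within the range of the Rb/p53 tumours, and Socs6 (8.25 and 8.45) lay between the tumour groups.

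**Figure D1:**
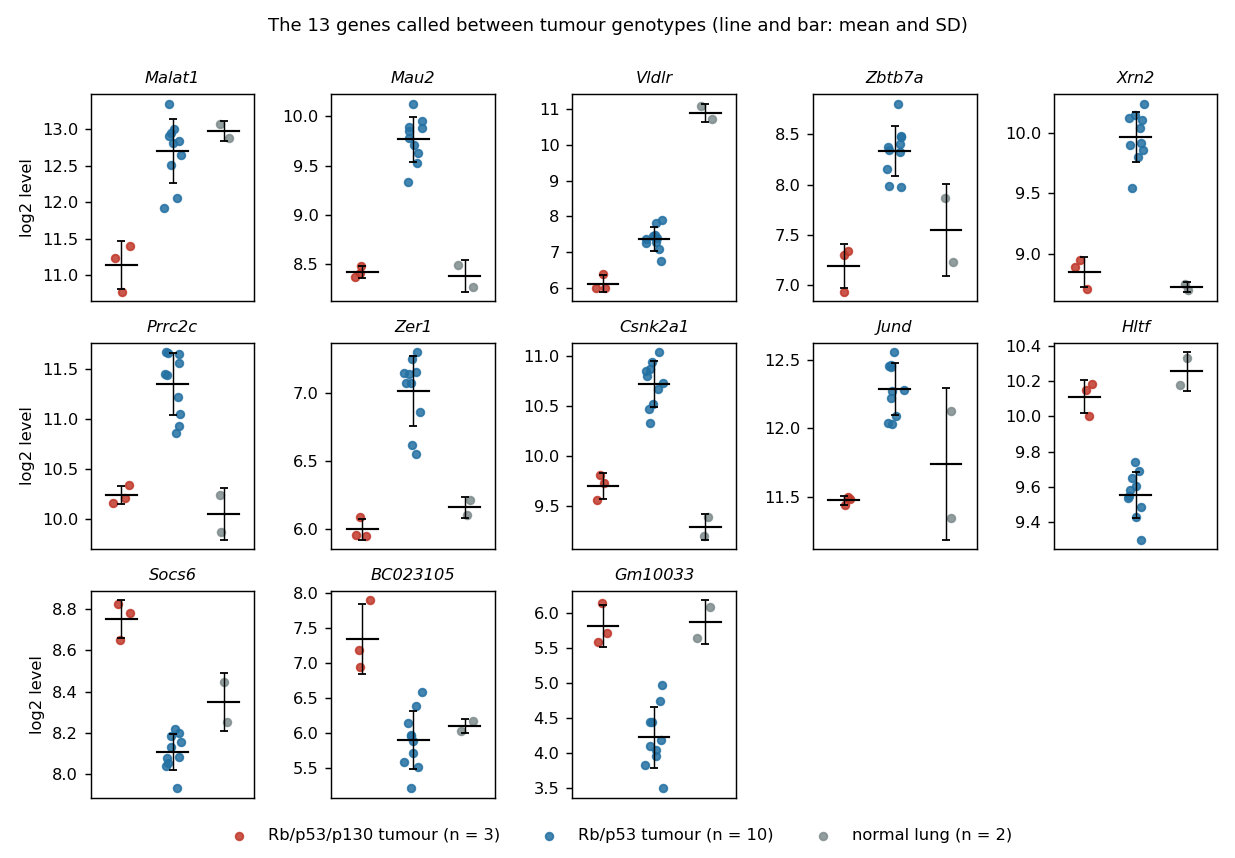
Log2 level (vertical axis, a separate scale per panel) of the 13 called genes in each array, with Rb/p53/p130 tumours (red, n = 3) left of Rb/p53 tumours (blue, n = 10) and normal lung (grey, n = 2); lines and bars are mean and SD. Red and blue points do not overlap in any panel, as with Malat1 at 10.77 to 11.41 in red and 11.92 to 13.35 in blue.

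These calls depended on which arrays were used. Leaving out any 1 of the 3 Rb/p53/p130 tumours, 11, 12 or 13, left 3 genes called, and leaving out Rb/p53 tumour 1 gave 21. With the Xist level as a covariate, an alternative chosen after seeing the data, 6 genes were called, all among the 13: Mau2, Xrn2, Csnk2a1, Zbtb7a, Zer1 and Socs6. When each gene's probe sets were averaged, limma called 0 genes (1383 at an unadjusted p under 0.05), with a smallest adjusted p of 0.104. With each array weighted by its closeness to its group's mean, limma called 662 genes, 414 higher and 248 lower, with all 13 among them. These weights went with genotype, at 1.52 to 3.55 for Rb/p53/p130 tumours and 0.44 to 1.25 for Rb/p53 tumours.

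Promoter windows of the called genes were searched for motifs of the pathway, since DREAM binds the cell cycle homology element (CHR, TTTGAA) and E2F factors bind words such as TTTCGCGC, TTTGGCGC, TTTCCCGC and TTTGCCGC. The E-box CACGTG, bound by MYC family proteins, was searched as well, each on both strands of the RefSeq promoter windows of build GRCm38.p6. Of 11 called genes, which have 15 windows among them, Hltf held TTTGAA. That was 1 of the 15 windows, against 17.9% of all windows. None of the 15 held an E2F word, against 2.26% of all windows. Mau2, Prrc2c and Xrn2 held CACGTG, in 3 of the 15 windows, against 7.15% of all windows. A match is a description of the letters and not a bound site. The windows of 3 genes are printed, Malat1 for the deepest fall (chr19:5802623-5802922, minus strand, no match), Xrn2 for a fall with an E-box (chr2:147012749-147013048, plus strand) and Hltf for the rise with a CHR (chr3:20057561-20057860, plus strand). Capitals mark the motif.
Malat1: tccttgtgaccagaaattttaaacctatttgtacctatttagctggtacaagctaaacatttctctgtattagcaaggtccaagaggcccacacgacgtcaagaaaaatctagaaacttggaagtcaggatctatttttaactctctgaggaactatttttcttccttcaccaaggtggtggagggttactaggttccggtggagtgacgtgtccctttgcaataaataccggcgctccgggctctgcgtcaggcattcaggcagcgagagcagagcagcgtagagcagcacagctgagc
Xrn2: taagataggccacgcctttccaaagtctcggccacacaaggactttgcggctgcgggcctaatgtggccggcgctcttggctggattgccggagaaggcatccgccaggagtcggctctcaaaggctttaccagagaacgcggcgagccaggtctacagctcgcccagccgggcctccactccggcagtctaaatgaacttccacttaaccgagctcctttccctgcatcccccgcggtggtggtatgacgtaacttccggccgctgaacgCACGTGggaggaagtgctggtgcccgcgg
Hltf: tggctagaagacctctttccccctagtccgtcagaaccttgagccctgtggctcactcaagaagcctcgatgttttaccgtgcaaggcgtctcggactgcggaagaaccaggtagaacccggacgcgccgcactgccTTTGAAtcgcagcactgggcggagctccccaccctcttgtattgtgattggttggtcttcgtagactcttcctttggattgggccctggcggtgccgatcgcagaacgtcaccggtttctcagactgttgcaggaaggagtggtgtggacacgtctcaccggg

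Read by probe set, the comparison called 95 of 45037, or 0.211%, and most were lower. In Rb/p53/p130 tumours 83 probe sets fell (0.184% of those tested) and 12 rose (0.0266%), and centring the arrays on their medians gave 57 falls and 19 rises. The falls ran from -3.0 to -0.56 on the log2 scale with a median of -1.05, and the rises from 0.56 to 3.39. The median over all probe sets was -0.02. Without tumour 11, 12 or 13 the calls numbered 17, 19 and 25, and with the Xist covariate 33.

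**Figure D2:**
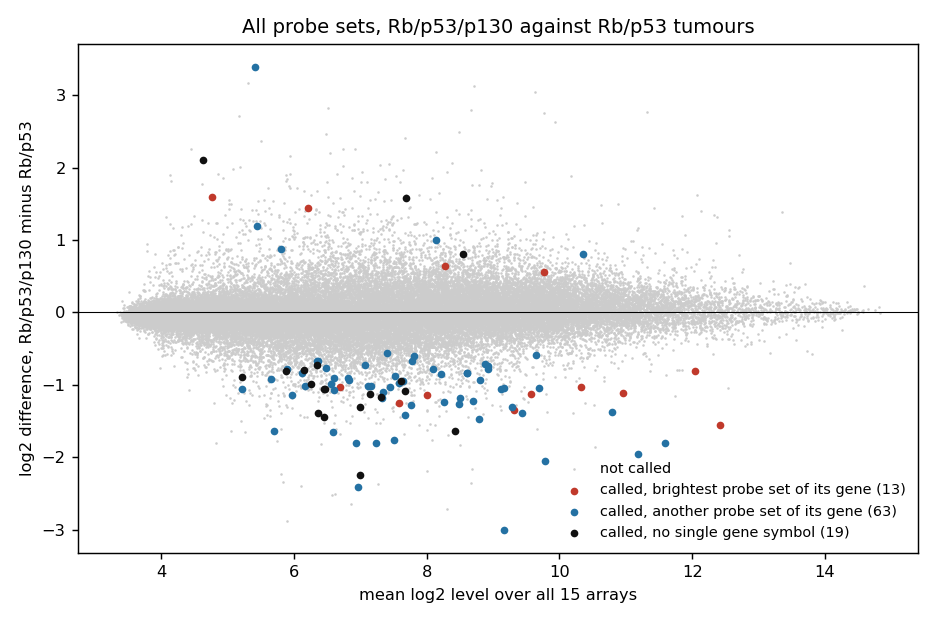
Log2 difference, Rb/p53/p130 minus Rb/p53 tumours (vertical axis), against the mean log2 level over all 15 arrays (horizontal axis), 1 point per probe set. Called probe sets are coloured by whether they are the brightest of their gene (13), another probe set (63) or have no single symbol (19), and 83 of the 95 lie below zero.

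Most of the falls were not in the brightest probe set of the gene. Of 76 called probe sets with 1 gene symbol, 82.9% were not the brightest, against 47.9% of all such probe sets; the 63 make up 0.376% of those that are not the brightest. The 58 falls of this kind (0.346% of probe sets that are not the brightest, where 5 rises make 0.0298%) belonged to 54 genes and had a median log2 difference of -1.03. The brightest probe sets of the same 54 genes had a median of -0.03, with 34 negative and 20 positive and 2 called lower. At an unadjusted limma p under 0.05, 8 of the 54 were lower and 1 higher, where 2.61% of all genes were lower and 4.65% higher. Msi2, an RNA-binding protein of stem and progenitor cells, showed the pattern with the deepest fall. One of its probe sets was at 6.84, 7.28 and 7.17 in Rb/p53/p130 tumours, against 9.34, 10.01 and 11.1 (lowest, median and highest) in Rb/p53 tumours (7.99-fold lower, limma adjusted p = 0.0348). The brightest probe set of Msi2 differed by 0.05 ± 0.18 (SE), although 7 of 8 probe sets gave a negative difference and 3 were called lower.

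Ints10, a subunit of the Integrator complex that processes nuclear RNA, had a probe set at 5.36, 5.44 and 5.44 in Rb/p53/p130 tumours, against 6.63, 7.94 and 8.54 in Rb/p53 tumours (5.31-fold lower, limma adjusted p = 0.00769). Its brightest probe set differed by -0.03 ± 0.12. Usp7, a deubiquitinase that acts on Mdm2, had a probe set at 5.96, 6.2 and 6.0, against 6.87, 7.93 and 8.7 in Rb/p53 tumours (3.5-fold lower, limma adjusted p = 0.0192, brightest -0.11 ± 0.12). In each case the same gene thus gave a wide gap in 1 probe set and a difference near zero in the brightest. Bptf, a subunit of the NURF chromatin remodeller, had a probe set at 5.44, 5.98 and 5.76, against 6.96, 7.55 and 8.26 in Rb/p53 tumours (3.47-fold lower, limma adjusted p = 0.00583, brightest 0.04 ± 0.08). Med13, of the Mediator complex, had one at 5.19, 5.26 and 5.12, against 5.92, 6.43 and 6.52 (2.21-fold lower, limma adjusted p = 0.00142, brightest 0.12 ± 0.16). Which part of each transcript a probe set reads is not stated in the files. Msi2 and the genes of this paragraph were picked after their values were seen.

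**Figure D3:**
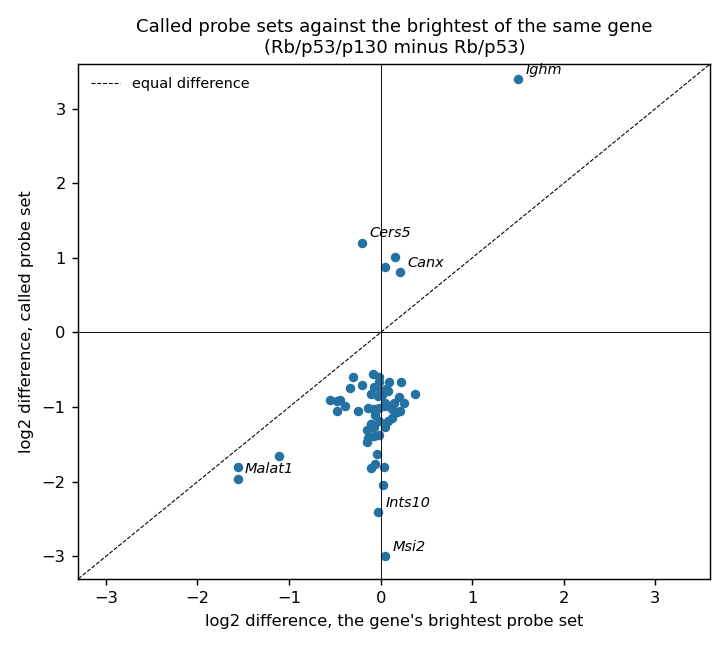
Log2 difference (Rb/p53/p130 minus Rb/p53 tumours) of each called probe set that is not the brightest of its gene (vertical axis) against that of the gene's brightest probe set (horizontal axis); the dashed line marks equal differences. Most falls sit near zero on the horizontal axis, with Msi2 at -3.0 against 0.05, while Malat1 lies near the line.

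The falls were set beside normal lung for level. The median log2 level of the 83 probe sets was 6.61 to 6.77 in Rb/p53/p130 tumours, 7.72 to 7.98 in Rb/p53 tumours and 6.83 and 7.22 in the normal lungs. On this measure the tumours with p130 stood above the lungs, and the tumours without it below them. Against normal lung, limma called 7 of the 83 higher and 14 lower in Rb/p53/p130 tumours (12.3% and 12.7% of all probe sets), and 65 higher with 5 lower in Rb/p53 tumours (16.0% and 16.1%). The comparisons share the 2 lungs and the probe sets were chosen by the difference between genotypes, so these counts describe levels only.

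Among the 12 rises, 1 probe set of Ighm, the heavy chain of IgM, had the widest difference. Ighm and the genes given with it were likewise picked after their values were seen. That probe set was at 7.51, 8.31 and 8.45 in Rb/p53/p130 tumours, against 4.51, 4.74 and 4.78 in Rb/p53 tumours, and at 4.62 and 5.21 in normal lung. It was at least 10.5-fold higher (limma adjusted p = 1.47e-07). The brightest Ighm probe set differed by 1.5 ± 0.97 (limma adjusted p = 0.665), and 10 of 11 probe sets gave a positive difference. In normal lung the brightest stood at 13.41 and 13.25, above its means of 11.66 in Rb/p53/p130 and 10.15 in Rb/p53 tumours. The called probe set was low in those lungs, so its rise is not shown to be a rise of IgM RNA as a whole. Over 13 B and plasma cell genes the mean level was 7.51 to 7.82 in Rb/p53/p130 tumours, 6.14 to 8.07 in Rb/p53 tumours and 8.88 in both lungs, with 0 called by the brightest probe set and a median difference of 0.13. The part of these cells in the Ighm rise was not tested. Cers5, a ceramide synthase, had a probe set at 6.38, 6.31 and 6.27, against 4.84, 5.16 and 5.31 in Rb/p53 tumours (2.3-fold higher, limma adjusted p = 0.000133), while its brightest differed by -0.2 ± 0.09. Canx, a chaperone of the endoplasmic reticulum, had one at 11.03, 10.95 and 10.92, against 9.95, 10.14 and 10.36 (1.75-fold higher, limma adjusted p = 0.00583, brightest 0.21 ± 0.11).

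Some called probe sets lay near each other in the genome. On chromosome 8 a run of 48 measured genes from Ints10 to Jund, picked after the values were seen, held 4 called probe sets of 86. They belonged to Ints10, Mau2 and Jund, which were lower, and Gm10033, which was higher, and the median log2 difference over the run's genes was -0.04. On chromosome 11 a run of 60 genes from Heatr6 to Msi2 held 6 called of 128, in Heatr6, Med13, Gdpd1 and Msi2. By their brightest probe set limma called 0 genes of the run, and 3 had an unadjusted limma p under 0.05. By the exact rank-sum test, which could call none after adjustment, 6 had an unadjusted p under 0.05. Chromosome 11 as a whole had 13 called of 2724 probe sets (0.477%) and chromosome 1 had 9 of 2148 (0.419%), beside 0.211% over all. Chromosome 8 had 5 of 1740 (0.287%), below chromosomes 18 (0.413%), 19 (0.33%) and 15 (0.291%) as well.

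Counts over gene lists go by each gene's brightest probe set. No gene of the cell cycle lists, which hold the known targets of pocket proteins, was called. Of 10 pocket protein and DREAM genes limma called 0, with a median log2 difference of 0.19, and 1 was higher at an unadjusted p under 0.05, a level that 7.26% of all genes reached, 4.65% upward and 2.61% downward. That gene was Lin54, the DNA-binding subunit of MuvB, at 10.08, 9.83 and 9.87 in Rb/p53/p130 tumours, against 8.25, 9.25 and 9.87 in Rb/p53 tumours (log2 difference 0.76 ± 0.26, limma adjusted p = 0.312). Rbl1, which encodes p107, was at 10.43, 10.27 and 10.28, against 9.43, 10.15 and 10.66 in Rb/p53 tumours (0.21 ± 0.18, limma adjusted p = 0.763). By this probe set, its brightest, the 3 tumours without p130 lay within the range of the others. Of its 3 other probe sets 1 was at 5.13, 5.32 and 5.26, against 5.61, 5.95 and 7.3 in Rb/p53 tumours, without overlap but not called (-0.89 ± 0.28, limma adjusted p = 0.252). Of 10 E2F and DP factors 0 were called and 0 passed at an unadjusted p under 0.05, with a median of 0.18. E2f1 was at 9.11, 9.16 and 8.97, against 8.66, 8.95 and 11.73 (-0.18 ± 0.47, limma adjusted p = 0.943), and E2f4, the partner of p130, differed by -0.11 ± 0.1.

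Of 15 G1 cyclins, their kinases and inhibitors 0 were called, 2 were higher at an unadjusted p under 0.05, and the median was 0.18. Ccne2, an activator of CDK2 at the start of replication, was at 11.92, 11.76 and 11.53 in Rb/p53/p130 tumours, against 10.02, 11.02 and 11.53 in Rb/p53 tumours (log2 difference 0.77 ± 0.25, limma adjusted p = 0.282). Ccne1 differed by -0.1 ± 0.26 and Cdkn2a by -0.02 ± 0.24. Of 29 E2F targets of G1/S, 22 differed in the positive direction, 2 at an unadjusted p under 0.05, and the median was 0.16. Mcm5, a subunit of the replication helicase, was at 12.0, 12.06 and 11.94, against 11.03, 11.5 and 11.82 in Rb/p53 tumours, with no overlap (0.54 ± 0.15, limma adjusted p = 0.157). Of 29 G2/M genes, 23 differed in the positive direction, 0 at an unadjusted p under 0.05, and the median was 0.09. Mki67, the proliferation marker, differed by 0.22 ± 0.23 (95% interval -0.27 to 0.71). The intervals bound these differences and do not show that the genotypes were alike.

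**Figure D4:**
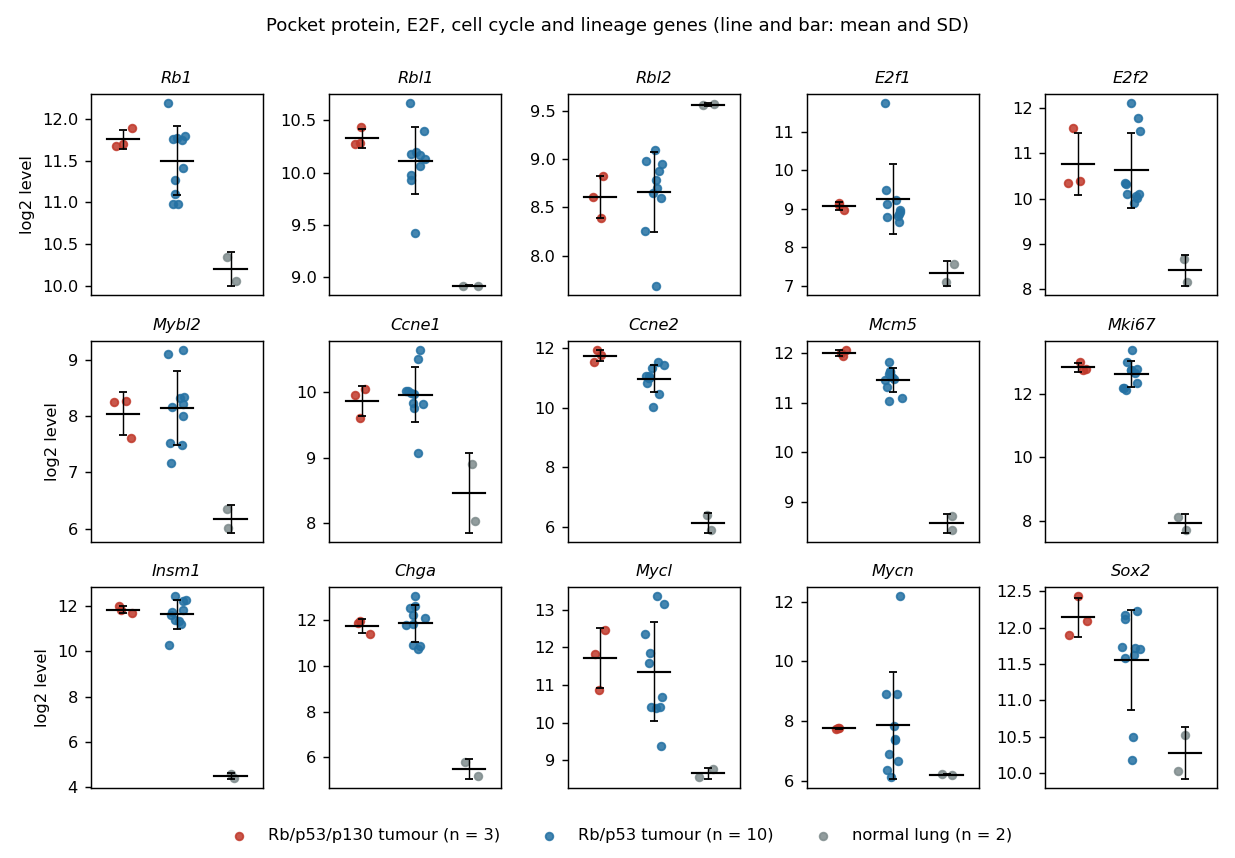
Log2 level (vertical axis, a separate scale per panel) of pocket protein, E2F, cell cycle and lineage genes in each array, with Rb/p53/p130 tumours (red, n = 3), Rb/p53 tumours (blue, n = 10) and normal lung (grey, n = 2); lines and bars are mean and SD. The tumour groups overlap in most panels, and single Rb/p53 tumours stand apart for E2f1 (11.73) and Mycn (12.19).

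The tumours' lineage genes overlapped between the genotypes. Of 26 neuroendocrine genes 0 were called and 0 passed at an unadjusted p under 0.05, with a median log2 difference of -0.04. Insm1, a neuroendocrine transcription factor, was at 11.7, 11.81 and 12.01 in Rb/p53/p130 tumours, against 10.27, 11.67 and 12.44 in Rb/p53 tumours (0.21 ± 0.34). Chga, a secretory granule protein, was at 11.85, 11.96 and 11.37, against 10.71, 11.95 and 13.04 in Rb/p53 tumours (-0.14 ± 0.43). Of 19 genes linked to small cell lung cancer 0 were called (median 0.09). The oncogenes Mycl (0.35 ± 0.71), Mycn (-0.11 ± 0.93) and Myc (0.27 ± 0.26) and the factor Nfib (0.1 ± 0.29) did not pass, and the wide errors of Mycl and Mycn go with the spread among Rb/p53 tumours. Of 20 Notch and non-neuroendocrine genes 0 were called and 2 were higher at an unadjusted p under 0.05 (median 0.22). Hes1, a repressor downstream of Notch, was at 9.55, 9.48 and 10.0, against 7.72, 8.83 and 9.74 in Rb/p53 tumours (0.9 ± 0.34, limma adjusted p = 0.364).

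Most synapse and axon genes gave negative differences, and 0 were called. Of 25, 22 were negative, 3 of them at an unadjusted p under 0.05 and 1 upward, and the median was -0.31, beside 0.01 over all genes. Syt11, a synaptotagmin, was at 9.75, 9.79 and 9.45 in Rb/p53/p130 tumours, against 9.76, 10.46 and 10.9 in Rb/p53 tumours (log2 difference -0.72 ± 0.19, limma adjusted p = 0.144). Nefl, the light neurofilament chain, was at 6.08, 6.39 and 5.02, against 5.06, 8.29 and 12.15 (-2.37 ± 1.06), and did not pass. Levels among Rb/p53 tumours spanned more than this difference. Of 19 Wnt pathway genes measured 0 were called and 2 were higher at an unadjusted p under 0.05 (median 0.09). The ligand Wnt5a was at 8.76, 8.7 and 7.58, against 5.66, 6.47 and 8.09 in Rb/p53 tumours (1.66 ± 0.47, limma adjusted p = 0.193).

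Genes of RNA splicing had a median of 0.02 over 19, with 0 called and 4 lower at an unadjusted p under 0.05. Son, a core protein of nuclear speckles, was at 12.36, 12.54 and 12.71 in Rb/p53/p130 tumours, against 12.72, 12.97 and 13.24 in Rb/p53 tumours, just short of overlap (log2 difference -0.43 ± 0.13, limma adjusted p = 0.21). Without probe sets whose suffix marks shared probes the median of this list was -0.34. Of 18 chromatin modifiers 0 were called by their brightest probe set (median 0.1), while Bptf was by another, as given above. Crebbp, a histone acetyltransferase mutated in human small cell lung cancer, was at 10.23, 10.2 and 10.39, against 10.49, 10.66 and 11.01 (-0.44 ± 0.11, limma adjusted p = 0.144). Of 14 hypoxia and glycolysis genes, 3 were lower and 1 higher at an unadjusted p under 0.05, with 0 called and a median of -0.35. Ldha, which makes lactate, differed by -0.34 ± 0.14 and the oxygen-regulated factor Hif1a by 0.63 ± 0.18.

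By their brightest probe sets markers of other cells in the tissue were not called, though 1 other probe set of Ighm was, and 1 tumour set the value of the list with the highest median. The hepatocyte list had a median log2 difference of 1.05 over 9 genes, all positive. Its smallest difference, 0.05, was that of Trh, which encodes a neuropeptide hormone and is not a hepatocyte marker. The list's mean level was 6.11, 9.47 and 6.09 in Rb/p53/p130 tumours 11, 12 and 13, against 5.7, 6.11 and 7.44 (lowest, median and highest) in Rb/p53 tumours. Of the Rb/p53/p130 tumours, tumour 12 alone was high, with Alb, the serum albumin gene, at 6.16, 13.75 and 5.35. Without tumour 12 the list's median difference was -0.15. Among Rb/p53 tumours the lowest, median and highest levels of Alb were 5.05, 5.5 and 9.73, the highest in tumour 2. Car6, a secreted carbonic anhydrase picked after its values were seen, was high in 1 Rb/p53/p130 tumour, at 12.42, 4.85 and 4.6, against 4.38 to 4.83 in Rb/p53 tumours. Club and secretory airway genes had a median of 0.75 over 13, with 11 positive and 0 called. Their mean level was 10.36, 10.64 and 11.73 in Rb/p53/p130 tumours, within the range of 8.79 to 11.7 in Rb/p53 tumours for all but tumour 13. Endothelial genes had a median of -0.12 over 22, and Flt1, a receptor for VEGF, was at 7.9, 7.77 and 7.66, against 8.15, 8.31 and 8.76 in Rb/p53 tumours (-0.59 ± 0.14, limma adjusted p = 0.0997). Fibroblast and smooth muscle genes had a median of -0.31 over 21, with 3 lower at an unadjusted p under 0.05. Macrophage and dendritic genes had a median of -0.25 over 18, and T and NK cell genes of -0.01 over 16.

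Most genes of immune signalling gave positive differences, and 0 were called. All 10 genes of MHC class I presentation had a positive difference (median 0.37, 0 called, 1 at an unadjusted p under 0.05), as did 13 of 14 interferon response genes (median 0.48, 0 called, 2 at an unadjusted p under 0.05). The mean level of the interferon list was 9.52, 8.95 and 9.27 in Rb/p53/p130 tumours, inside the range of 7.52 to 9.73 in Rb/p53 tumours. Psmb9, a subunit of the immunoproteasome, was at 10.69, 10.34 and 10.6, against 8.74, 9.89 and 10.47 (log2 difference 0.76 ± 0.29, limma adjusted p = 0.38). Of 14 heat shock and unfolded protein genes 0 were called and 2 were higher at an unadjusted p under 0.05 (median 0.33). Ribosomal protein genes (median 0.0 over 14) and oxidative phosphorylation genes (0.02 over 17) lay near the median of all genes. Of 9 kallikreins, all positive, 0 were called and the median was 0.16. In Rb/p53/p130 tumours 5 of the 9 had means at or below 5.05 and are not shown to be above background. Klk1, a secreted protease, was at 12.07, 11.9 and 13.96, against 5.73, 10.45 and 12.79 in Rb/p53 tumours (2.63 ± 1.1, limma adjusted p = 0.424).

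**Figure D5:**
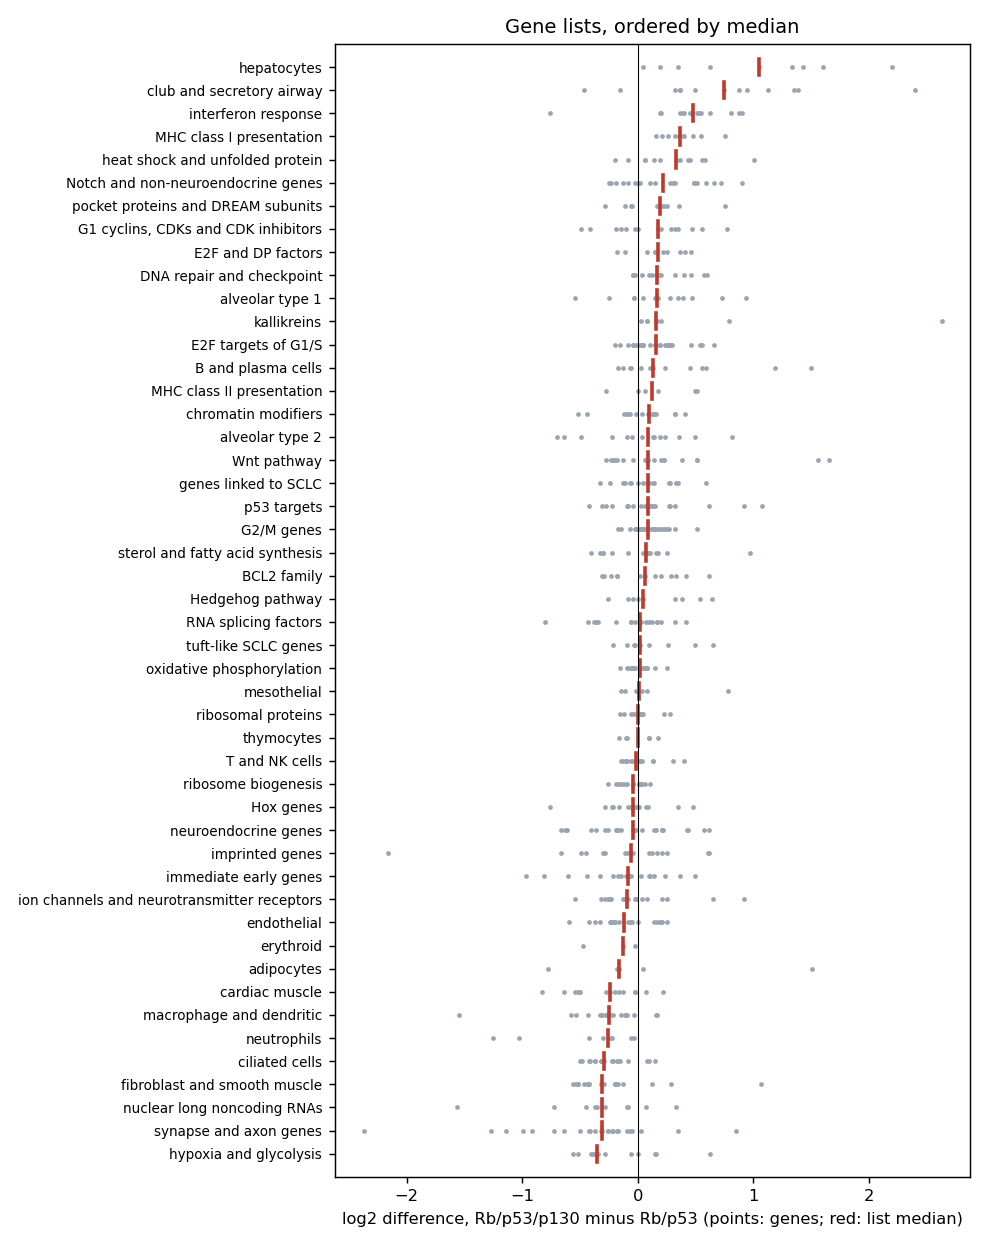
Log2 difference, Rb/p53/p130 minus Rb/p53 tumours (horizontal axis), of each measured gene (grey points) in each gene list except the sex-linked genes (rows, ordered by median), with the list's median in red. Medians lie between -0.35 for hypoxia and glycolysis and 1.05 for hepatocytes, the list whose median was -0.15 without tumour 12.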

How the data were processed

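Total RNA from 3 Rb/p53/p130 tumours, 10 Rb/p53 tumours and 2 normal lungs was isolated with Trizol, amplified in 2 rounds with a RiboAmp kit and hybridised to Affymetrix mouse arrays, per the labels' protocols. The authors deposited log2 values made with RMA, per the submitters' processing notes. RMA gives all arrays nearly the same distribution and so hides any shift common to most genes. Values ran from 3.11 to 15.2 and array medians from 6.58 to 6.68. The number of arrays limits the precision.

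Of 45101 probe sets, 64 controls were left out. The probe table named 1 gene for 34945 probe sets and several for 932, and left 9160 unnamed. By gene ID 34741 matched the RefSeq table of GRCm38.p6. All 3 groups entered 1 limma 3.58.1 fit (R 4.3.3, lmFit and eBayes, checked on simulated data), with Benjamini-Hochberg adjustment over 45037 probe sets and a threshold of 0.05. Levels are given per array, errors of differences are SE, and a gene list is described by counts and medians, with no test of the list.

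Named genes are the targeted genes, the 12 highest rises and 12 deepest falls among called genes without overlap (which takes in all 13), members of a panel of 34 (32 measured), and per list up to 3 called members or the one with the smallest p. Alb, Fgb, Car6, Nefl, Ldha, Pgr, Calml3, Iyd and the genes named only by a probe set lie outside the rule. The members and the 49 lists (723 of 783 entries measured) were chosen with earlier results of these data known. Alternatives left out each tumour and changed scaling, filters, weights, covariates and the gene summary. Figures used matplotlib 3.10.9.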

Additional observations from a re-analysis of the deposited data

Results flagged for a closer look

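In 9 of 102 genes examined, 1 of the 10 Rb/p53 tumours lay far from the others, where chance gives about 1 group in 20. The 102 include genes picked after their values were seen, such as Fgb. Tumour 8 was high in E2f1 at 11.73 (next 9.49) and in the neural factor Neurod1 at 6.4 (next 4.98). Tumour 7 was high in Mycn at 12.19 (next 8.9) and low in Krt19, a simple keratin, at 6.95 (next 9.11) and in Xbp1, a factor of secretory cells, at 11.73 (next 12.34). Tumour 2 was high in the liver genes Apoh at 6.43 (next 5.71) and Fgb at 6.03 (next 4.99) and in the kallikrein Klk1b5 at 4.65 (next 4.19). Tumour 3 was low in Casq2, a muscle calcium store protein, at 6.14 (next 6.97). Groups of 3 were not examined, so Alb in Rb/p53/p130 tumour 12 and Car6 in tumour 11 are outside this count. The cause was not tested.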

How the results depend on the processing

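No paired analysis was possible because the tumours of the 2 genotypes share no replicate number. With 13 genes and 95 probe sets called in the main analysis, array weights gave 662 genes (414 higher, 248 lower) and 2674 probe sets, with weights of 1.52 to 3.55 for Rb/p53/p130 tumours and 0.44 to 1.25 for Rb/p53 tumours. The Xist covariate gave 6 genes and 33 probe sets, the Gapdh covariate 151 probe sets, brighter probe sets alone 61, and a difference of at least 1 gave 57. The exact rank-sum test gave 0 genes and 0 probe sets (5359 at an unadjusted p under 0.05), and the mean of a gene's probe sets 0 genes. Leaving out 1 tumour gave 3 to 21 genes and 17 to 172 probe sets. The probe sets called were 17, 19 and 25 without tumours 11, 12 and 13, 150, 160 and 172 without tumours 1, 3 and 8, and 60 and 57 without tumours 4 and 6. The other settings stayed within 1.5 times. Among the named genes no called difference changed sign, 86 values lost a call, 26 gained one (25 of them under array weights) and 41 values called in neither fit changed sign; the cause was not tested. Of 1268 list medians 15 moved by more than the SD of the list's level among Rb/p53 tumours, those of hepatocytes to 1.74 under array weights and to 1.75 without tumour 13. With 3 tumours in 1 group, small differences were not detectable, and probe sets at or below 5.05 are not shown to be above background.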

Other observations

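Among genes outside every list, Pgr, the progesterone receptor, was at 8.14, 8.29 and 8.51 in Rb/p53/p130 tumours, against 4.46, 5.86 and 8.2 (lowest, median and highest) in Rb/p53 tumours (log2 difference 2.26 ± 0.62, limma adjusted p = 0.175). Calml3, a calmodulin relative of epithelia, was at 7.25, 8.39 and 10.26, against 4.59, 5.68 and 8.09 in Rb/p53 tumours (2.83 ± 0.7, limma adjusted p = 0.122). Iyd, which recovers iodide from thyroid hormone precursors, was at 7.45, 8.38 and 9.15, against 4.96, 5.31 and 7.85 (2.26 ± 0.68, limma adjusted p = 0.225). These genes were picked after their values were seen, their groups overlapped and none passed the test. Ndn, an imprinted gene of neurons and part of the imprinted list, was at 7.16, 6.82 and 6.58, against 7.25, 8.74 and 13.39 in Rb/p53 tumours (-2.16 ± 0.98, limma adjusted p = 0.477), without overlap.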
